A study of Mus musculus with 10 samples.

Results

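The genes described here are 39 genes of glycolysis, pyruvate use and the response to low oxygen, chosen as a list of gene symbols. No cut on their values was applied, but earlier results of these data were known when the list was chosen. All 39 had a row among the 46316 genes of the count table, and 37 of them passed the filter on low counts and were tested with 17718 genes in all. Ldhb and Pdk4 had too few reads to be tested. By role, the list holds 4 transporters of glucose and lactate, 11 genes of the steps from glucose to triose phosphate, 7 genes of the steps from triose phosphate to pyruvate, 2 lactate dehydrogenases, 5 genes of pyruvate dehydrogenase and its kinases, and 10 genes of hypoxia sensing or regulation by hypoxia-inducible factor (HIF).

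The RNA came from sorted spleen B cells of C57BL/6 mice in 3 groups. The pBIC10 group (3 libraries, 2 female and 1 male) was an IL-10-deficient mouse model of diffuse large B cell lymphoma of the activated B cell type, with floxed alleles of p53 (p53F/F), of Blimp1 (Blimp1F/F) and of IL-10 (IL-10F/F), the IKK2 allele IKK2castopF/stopF, which yields constitutively active IKK2 once Cre removes its stop cassette, and Cg1Cre/+. The pBIC group (3 libraries, all female) was the IL-10-proficient model of the same genotype without the IL-10F/F alleles. The YC group (4 libraries, 3 female and 1 male) consisted of normal controls, YFPstopF/+ Cg1Cre/+. Every mouse therefore carried Cg1Cre/+, a Cre recombinase expressed from the immunoglobulin Cγ1 locus that is active in B cells of the germinal centre reaction. Lymphoma cells were sorted as B220+GFP+ from moribund mice. YC cells were B220+YFP+ germinal centre B cells, taken 10 days after a second immunization with sheep red blood cells that followed the first by 20 days, per the series description; the sample labels of YC repeat the wording used for the lymphomas. The male libraries were pBIC10 replicate 3 and YC replicate 3. The labels give no ages. The pBIC and YC libraries are labelled as re-analysed from earlier samples and the pBIC10 libraries are not, so genotype and time of data generation cannot be told apart in either comparison that involves pBIC10. The sample titles carry a different number for each library, which the labels do not explain, and no label states that the libraries came from separate animals or tumours; the p-values measure the spread between these libraries.

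Glycolysis splits glucose into pyruvate and yields ATP and NADH. Pyruvate is then either reduced to lactate by lactate dehydrogenase and exported, or oxidised to acetyl-CoA by the pyruvate dehydrogenase complex, which the pyruvate dehydrogenase kinases switch off by phosphorylation. HIF-1, a dimer of HIF-1α and ARNT, accumulates when oxygen is low because the prolyl hydroxylases that mark HIF-1α for degradation need oxygen, and it activates many glycolytic genes as well as Pdk1, Vegfa and the prolyl hydroxylase genes themselves. The transcription factor Myc activates many of the same glycolytic genes in proliferating lymphocytes.

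Library totals were 17100995 to 18578955 counts in pBIC10, 17797344 to 19134178 in pBIC and 12590117 to 14330172 in YC. Levels are given as CPM, the usual scaling of read counts to library size, here with TMM factors, and a library's 3-count detection floor lay between 0.154 and 0.246 CPM. Il10 itself was at 2.71, 1.99 and 4.77 CPM in pBIC10, 19.4, 6.84 and 8.78 CPM in pBIC and 4.23, 7.45, 7.14 and 9.98 CPM in YC, so reads on the gene remained in every pBIC10 library. These levels lay below all pBIC levels (log2 fold change -1.88 ± 0.46, adjusted p = 0.00809). They were also lower than those of YC, with overlap (log2 fold change -1.18 ± 0.44, adjusted p = 0.0371), a call lost without pBIC10 replicate 1 or 2 or YC replicate 2, 3 or 4, or with scaling to library size alone or in limma-voom (log2 fold change -1.2 to -0.93, adjusted p 0.054 to 0.143). Here and below, ± beside a fold change is its SE, and libraries named as left out were left out 1 at a time. The fold change of pBIC10 against pBIC was -1.29 (adjusted p = 0.0399) without pBIC replicate 1. The sum over 8 B cell markers was 2716 to 4578 CPM in pBIC10, 2290 to 3823 CPM in pBIC and 8444 to 10637 CPM in YC, and the sum over 8 germinal centre markers was 47.0 to 64.9 CPM in pBIC10, 65.3 to 82.7 CPM in pBIC and 684 to 1314 CPM in YC. Over 10 erythroid genes the sum was 653 to 1645 CPM in pBIC10, 34.4 to 691 CPM in pBIC and 185 to 557 CPM in YC. Over 10 macrophage and monocyte genes it was 17.9 to 30.2 CPM in pBIC10, where Marco and Vsig4 were at 0, 125 to 167 CPM in pBIC, where Vsig4 was at 0, and 137 to 196 CPM in YC. The pBIC sum was mostly Cd68, a lysosomal protein gene at 115, 100.3 and 117 CPM there, and of 9 tested genes of the list 9 were called lower in pBIC10 than in YC and 7 in pBIC than in YC, where Cd68 was higher. Between the lymphomas 2 of the 9, Cd68 and Lyz2, were called lower in pBIC10. Over 10 T cell genes it was 40.7 to 61.8 CPM in pBIC10, 36.8 to 46.1 CPM in pBIC and 333 to 535 CPM in YC. The pBIC10 sum was mostly Lck, at 36.5, 37.6 and 57.7 CPM, and 8 of the 10 T cell genes were called lower in pBIC10 than in pBIC, with Lck the 1 called higher. All 10 were called lower in each lymphoma than in YC. Over 8 plasma cell genes the sum was 519 to 527 CPM in pBIC10, 646 to 1099 CPM in pBIC and 1557 to 3235 CPM in YC. Of the 8, 6 were called lower in each lymphoma than in YC. Between the lymphomas 2 were called lower in pBIC10: Jchain and Prdm1, the Blimp1 gene that is floxed in both lymphomas. Sums of neutrophil, NK cell and platelet genes were also highest in YC. The part of these other cells in the results below was not tested, and in sorted bulk RNA fewer cells of a type and less RNA per cell cannot be told apart.

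In pBIC10 against pBIC, 3 of the 37 tested members were higher and 13 were lower at an adjusted p under 0.05 in edgeR's quasi-likelihood test, and 21 did not pass. Called members were thus 43.2% of those tested, against 30.7% of all genes tested (15.6% higher and 15.1% lower), and their median log2 fold change was -0.56, against -0.01 over all genes. The members that fell included Aldoc, Pfkp, Hif1a, Hk2, Hk1, P4ha1, Aldoa, Gapdh and Pkm, and those that rose were Ndrg1, Eno3 and Slc2a3. In pBIC against YC, 23 members rose, 7 fell and 7 did not pass, so that 81.1% were called against 54.1% of all genes (26.4% higher and 27.7% lower). The median log2 fold change was 0.72 over the members and 0.02 over all genes. In pBIC10 against YC, 17 members rose, 11 fell and 9 did not pass, 75.7% against 51.7% of all genes (24.8% higher and 26.9% lower), with medians of 0.37 over the members and 0.01 over all genes. Calls with at least a 2-fold change numbered 2 higher and 9 lower members in pBIC10 against pBIC (19.8% of all genes in either direction), 14 higher and 6 lower in pBIC against YC (35.6%), and 11 higher and 9 lower in pBIC10 against YC (35.3%). These comparisons share libraries with each other, and their calls are not independent. Values of 1 group all lay on 1 side of the other group's in 16 members (43.2%) between pBIC10 and pBIC, 28 (75.7%) between pBIC and YC, and 27 (73.0%) between pBIC10 and YC, against 41.8%, 54.2% and 61.0% of all genes tested.

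**Figure D1:**
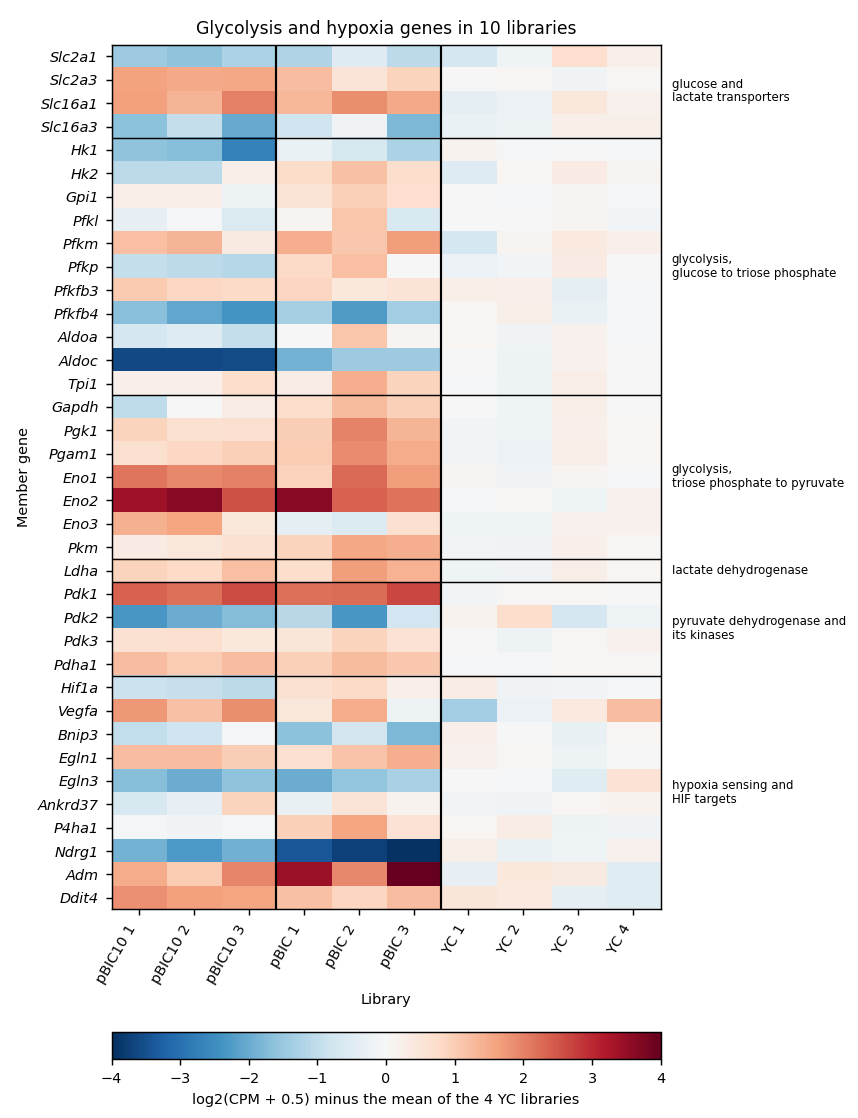
Level of the 37 tested members in each library, as log2(CPM + 0.5) minus the mean of the 4 YC libraries; rows are genes grouped by role, columns are the pBIC10, pBIC and YC libraries, red is above and blue below the YC mean, and differences beyond 4 take the end colour. Eno2 and Pdk1 are red in all 6 lymphoma libraries, Aldoc is darkest blue in pBIC10, Ndrg1 is darkest blue in pBIC, and Hif1a and Pfkp are blue in pBIC10.

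Promoters of 6 members, in pairs that share a call, are shown first, because the cores of binding sites for HIF and Myc can be read directly in them. RefSeq promoters (GRCm38.p6, 250 bases before the transcription start) were found for 37 of the 39 members, not for Slc2a3 or Ndrg1, and some members have several starts, 52 promoters in all. The core of the hypoxia response element was searched as ACGTG or GCGTG and the E-box bound by Myc as CACGTG, which contains ACGTG, all on both strands. ACGTG or GCGTG occurred in 42 of the 52 member promoters (80.8%), against 38.6% of 32851 RefSeq promoters of the same length, and CACGTG occurred in 7 of 52 (13.5%), against 6.02%. At least 1 promoter held ACGTG or GCGTG in 34 of the 37 members. The list was chosen in part for regulation by HIF, so a higher share of these cores could be foreseen. Some windows of Aldoa, Eno1 and Pfkm overlap and were counted separately. The RefSeq promoters were not matched to the members for base composition. These shares are therefore a description, and enrichment was not tested. A match is a run of letters and not evidence of binding, and its absence says only that these letters are not in the window. The examples are from the plus strand, with ACGTG or GCGTG on either strand in capitals. Pdk1 (chr2:71872974-71873223) and Ldha (chr7:46845554-46845803) were higher in both lymphomas than in YC, P4ha1 (chr10:59323046-59323295) and Pgk1 (chrX:106186850-106187099) were lower in pBIC10 than in pBIC, and Aldoc (chr11:78322823-78323072) and Slc2a1 (chr4:119108495-119108744) were lower in both lymphomas than in YC. The pairs are not separate patterns. Pgk1 was also higher in both lymphomas than in YC, and Aldoc was also lower in pBIC10 than in pBIC. The Pgk1 call between the lymphomas was lost in some alternatives, given below.
Pdk1: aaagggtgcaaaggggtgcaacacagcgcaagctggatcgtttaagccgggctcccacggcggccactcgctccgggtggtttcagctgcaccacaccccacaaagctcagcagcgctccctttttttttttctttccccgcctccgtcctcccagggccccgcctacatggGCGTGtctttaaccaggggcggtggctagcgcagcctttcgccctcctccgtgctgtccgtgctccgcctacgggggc
Ldha: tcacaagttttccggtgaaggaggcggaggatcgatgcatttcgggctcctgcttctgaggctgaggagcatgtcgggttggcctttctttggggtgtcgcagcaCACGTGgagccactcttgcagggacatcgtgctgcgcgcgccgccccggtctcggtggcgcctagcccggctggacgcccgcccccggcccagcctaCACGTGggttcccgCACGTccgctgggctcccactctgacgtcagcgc
P4ha1: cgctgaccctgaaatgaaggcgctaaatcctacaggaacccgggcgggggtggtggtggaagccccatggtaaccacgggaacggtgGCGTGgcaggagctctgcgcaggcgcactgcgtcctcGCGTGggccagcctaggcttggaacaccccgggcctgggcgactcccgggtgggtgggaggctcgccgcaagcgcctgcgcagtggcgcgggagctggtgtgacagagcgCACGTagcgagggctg
Pgk1: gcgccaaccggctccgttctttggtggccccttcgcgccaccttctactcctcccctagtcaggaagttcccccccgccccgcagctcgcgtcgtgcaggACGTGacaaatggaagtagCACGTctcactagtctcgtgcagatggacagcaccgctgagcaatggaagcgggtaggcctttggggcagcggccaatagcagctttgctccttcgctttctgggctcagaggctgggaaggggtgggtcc
Aldoc: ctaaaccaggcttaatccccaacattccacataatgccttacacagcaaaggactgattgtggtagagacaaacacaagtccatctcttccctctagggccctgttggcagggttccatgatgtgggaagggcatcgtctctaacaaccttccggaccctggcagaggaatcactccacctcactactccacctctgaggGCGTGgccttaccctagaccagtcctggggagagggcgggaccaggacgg
Slc2a1: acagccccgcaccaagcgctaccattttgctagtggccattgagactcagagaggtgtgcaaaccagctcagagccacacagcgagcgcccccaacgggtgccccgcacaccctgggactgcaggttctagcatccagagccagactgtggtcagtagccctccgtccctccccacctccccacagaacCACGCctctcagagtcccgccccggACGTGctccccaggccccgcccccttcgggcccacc
Each of these 6 windows holds at least 1 core. The Ldha window shown is the only one of the 6 with CACGTG, which occurs there at 2 places. Pdk1, Ldha and Aldoc each have a further start that is not shown: its window holds no core for Pdk1, 1 core and no CACGTG for Ldha, and 1 core for Aldoc.

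Against YC, the glucose transporters moved in opposite directions. Slc2a1, which encodes GLUT1, the main glucose importer of activated lymphocytes, was at 30, 26.7 and 33.9 CPM in pBIC10, 35.7, 58.4 and 39.9 CPM in pBIC and 51.6, 73.1, 132 and 95.3 CPM in YC. All pBIC10 libraries lay below all libraries of the other groups, while pBIC overlapped YC. Slc2a1 gave log2 fold changes of -1.54 ± 0.29 for pBIC10 against YC (adjusted p = 0.000705), -0.98 ± 0.28 for pBIC against YC (adjusted p = 0.0108) and -0.56 ± 0.30 for pBIC10 against pBIC (adjusted p = 0.17). Slc2a3, which encodes GLUT3, a transporter of higher affinity, was at 83.9, 80 and 80.7 CPM in pBIC10, 65.3, 39.1 and 51.1 CPM in pBIC and 27.7, 29.2, 24.8 and 28.4 CPM in YC. The 3 groups did not overlap, with pBIC10 highest and YC lowest. Slc2a3 gave log2 fold changes of 0.65 ± 0.19 for pBIC10 against pBIC (adjusted p = 0.0183), 0.91 ± 0.18 for pBIC against YC (adjusted p = 0.000802) and 1.57 ± 0.18 for pBIC10 against YC (adjusted p = 1.51e-05). Between the lymphomas, the Slc2a3 call was lost without pBIC10 replicate 1 or pBIC replicate 2, or with a fit to the compared groups alone or among females alone (log2 fold change 0.45 to 0.66, adjusted p 0.0506 to 0.079). Per kb of exon, Slc2a3 made up 56.8% ± 2.91 in pBIC10, 36.5% ± 11.3 in pBIC and 14.4% ± 5.22 in YC of the summed level of the pair (SD over libraries).

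Of the lactate transporters, Slc16a1 (MCT1) was at 162, 132 and 207 CPM in pBIC10, 131, 187 and 147 CPM in pBIC and 39.4, 43.2, 70.7 and 57.6 CPM in YC. The lymphoma groups overlapped each other and both lay above every YC library. Slc16a1 gave log2 fold changes of 1.56 ± 0.23 for pBIC against YC (adjusted p = 0.000106) and 1.66 ± 0.23 for pBIC10 against YC (adjusted p = 6.38e-05). Slc16a3 (MCT4), the exporter typical of strongly glycolytic cells, was low throughout, at 0.354, 0.879 and 0.154 CPM in pBIC10, 1.02, 1.92 and 0.268 CPM in pBIC and 1.71, 1.8, 2.62 and 2.64 CPM in YC. It was lower in pBIC10 than in YC without overlap (log2 fold change -2.24 ± 0.67, adjusted p = 0.0132), a call lost without pBIC10 replicate 1 or 3, or among females alone (log2 fold change -2.09 to -1.71, adjusted p 0.0511 to 0.0955). The fold change was -3.08 (adjusted p = 0.00821) without pBIC10 replicate 2. The difference between pBIC and YC did not pass (-1.04 ± 0.62, adjusted p = 0.172), nor did that between the lymphomas (-1.21 ± 0.70, adjusted p = 0.213).

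Hk1 and Hk2, hexokinases that trap glucose as glucose-6-phosphate, were both lower in pBIC10 than in pBIC. Hk1, the widely expressed form, was at 17.9, 16.5 and 8.0 CPM in pBIC10, 46.3, 35.1 and 22.9 CPM in pBIC and 61, 52.9, 55 and 52.6 CPM in YC. The groups were ordered pBIC10, pBIC, YC from low to high with no overlap. Hk1 gave log2 fold changes of -1.3 ± 0.30 for pBIC10 against pBIC (adjusted p = 0.00551) and -1.97 ± 0.29 for pBIC10 against YC (adjusted p = 0.000126). For pBIC against YC, Hk1 missed the threshold (-0.67 ± 0.28, adjusted p = 0.0553) and passed it in 10 of the alternatives, among them DESeq2, limma-voom and females alone, with log2 fold changes of -0.94 to -0.62 (adjusted p 0.0204 to 0.0492). Hk1 overlaps the antisense gene Hk1os, and the strand setting of the counting was not given in the sources used here. Hk2, the inducible form and a HIF and Myc target, was at 21, 21.8 and 53.1 CPM in pBIC10, 75.6, 103 and 74.2 CPM in pBIC and 31.4, 47.7, 56.6 and 49.4 CPM in YC. All pBIC libraries lay above all libraries of both other groups, and pBIC10 replicate 3 stood above the other pBIC10 libraries. Hk2 gave log2 fold changes of -1.4 ± 0.34 for pBIC10 against pBIC (adjusted p = 0.00828), 0.86 ± 0.31 for pBIC against YC (adjusted p = 0.0324) and -0.53 ± 0.32 for pBIC10 against YC (adjusted p = 0.179). The pBIC against YC call was lost without pBIC replicate 2 or YC replicate 1, 2 or 4 (log2 fold change 0.68 to 0.88, adjusted p 0.0586 to 0.107), and pBIC10 was called lower than YC without pBIC10 replicate 3, or with sex as a covariate or among females alone (log2 fold change -1.1 to -0.73, adjusted p 0.00346 to 0.0223).

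Gpi1, the isomerase of the next step, was at 530.4, 529 and 378 CPM in pBIC10, 637, 846 and 691 CPM in pBIC and 438, 422, 477 and 419 CPM in YC. All pBIC libraries lay above all others, and pBIC10 overlapped YC (adjusted p = 0.54). Gpi1 gave log2 fold changes of -0.60 ± 0.18 for pBIC10 against pBIC (adjusted p = 0.0202) and 0.72 ± 0.16 for pBIC against YC (adjusted p = 0.00228). The call between the lymphomas was lost without pBIC10 replicate 3, or with a fit to the compared groups alone or among females alone (log2 fold change -0.60 to -0.44, adjusted p 0.0529 to 0.0992).

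Among the phosphofructokinases, which catalyse the committed step, Pfkp (platelet type) was the one called lower in pBIC10. Pfkp was at 86.7, 82.6 and 77.2 CPM in pBIC10, 287, 393 and 168 CPM in pBIC and 144, 157, 212 and 173 CPM in YC. Every pBIC10 library lay below every library of the other groups. Pfkp gave log2 fold changes of -1.78 ± 0.26 for pBIC10 against pBIC (adjusted p = 0.000245) and -1.06 ± 0.24 for pBIC10 against YC (adjusted p = 0.00274). The pBIC libraries overlapped YC through pBIC replicate 3 and were higher (0.72 ± 0.23, adjusted p = 0.0192), a call lost without pBIC replicate 2 or YC replicate 1 or 2 (log2 fold change 0.47 to 0.65, adjusted p 0.061 to 0.0848). Pfkm (muscle type) was at 13.4, 14.9 and 7.13 CPM in pBIC10, 16, 12 and 18.6 CPM in pBIC and 3.19, 5.98, 7.36 and 6.42 CPM in YC. It was higher in pBIC than in YC (log2 fold change 1.44 ± 0.33, adjusted p = 0.00252) and higher in pBIC10 than in YC with overlap (1.04 ± 0.33, adjusted p = 0.0174), the second call being lost without pBIC10 replicate 1 or 2 (log2 fold change 0.85 to 0.94, adjusted p 0.0591 to 0.0832). Pfkl (liver type) ranged over 54.8 to 80 CPM in pBIC10, 54.3 to 176 CPM in pBIC and 76.2 to 89.4 CPM in YC and passed no test. Its high library was pBIC replicate 2, and pBIC10 against pBIC was called lower without pBIC replicate 3 (log2 fold change -0.98, adjusted p = 0.0122), while pBIC against YC was called higher without pBIC replicate 3 (log2 fold change 0.68, adjusted p = 0.0302). Per kb of exon, Pfkp made up 31.6% ± 4.26 in pBIC10, 50.5% ± 3.41 in pBIC and 47.4% ± 2.69 in YC of the 3 phosphofructokinases. Of the 50-base windows in Pfkp transcripts, 5.1% also occur in Pitrm1, a coding gene that overlaps Pfkp or lies nearby. Any effect on the Pfkp counts was not tested.

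The bifunctional enzymes that set the level of fructose-2,6-bisphosphate, the activator of phosphofructokinase, also diverged. Pfkfb3, whose product favours its synthesis, was at 87.5, 75.6 and 71.9 CPM in pBIC10, 77.8, 56.8 and 62.1 CPM in pBIC and 50.7, 49.1, 32.1 and 39.6 CPM in YC. Both lymphomas lay above YC without overlap, and the pBIC call was lost without pBIC replicate 1 (log2 fold change 0.47, adjusted p = 0.0583). Pfkfb3 gave log2 fold changes of 0.61 ± 0.19 for pBIC against YC (adjusted p = 0.0142) and 0.87 ± 0.19 for pBIC10 against YC (adjusted p = 0.00177). Pfkfb4 was at 3.24, 2.28 and 1.74 CPM in pBIC10, 4.23, 1.98 and 4.02 CPM in pBIC and 12.1, 13.5, 9.48 and 10.8 CPM in YC. All lymphoma libraries lay below all YC libraries, and Pfkfb4 made up 4.51% ± 0.908 in pBIC10, 7.34% ± 2.03 in pBIC and 29.5% ± 1.84 in YC of the pair per kb of exon. Pfkfb4 gave log2 fold changes of -1.75 ± 0.34 for pBIC against YC (adjusted p = 0.000916) and -2.24 ± 0.35 for pBIC10 against YC (adjusted p = 0.000185).

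Aldolase cleaves fructose-1,6-bisphosphate. Aldoa, its main form here, was at 306, 345 and 253 CPM in pBIC10, 489, 1057 and 527 CPM in pBIC and 519.5, 445, 549 and 463 CPM in YC. All pBIC10 libraries lay below all others. Aldoa gave log2 fold changes of -1.2 ± 0.26 for pBIC10 against pBIC (adjusted p = 0.00381) and -0.71 ± 0.24 for pBIC10 against YC (adjusted p = 0.0258). The second call was lost without pBIC10 replicate 1 or 3 or YC replicate 3, or among females alone (log2 fold change -0.71 to -0.53, adjusted p 0.0587 to 0.176). The pBIC libraries overlapped YC (adjusted p = 0.103), with pBIC replicate 2 above all other libraries, and pBIC was called higher without pBIC replicate 1 or 3, or with no filter on low counts (log2 fold change 0.53 to 0.68, adjusted p 0.0303 to 0.0469). Aldoc, which made up 0.0932% ± 0.0195 in pBIC10, 0.453% ± 0.153 in pBIC and 1.94% ± 0.0799 in YC of the pair per kb of exon, was at 0.236, 0.234 and 0.256 CPM in pBIC10, 1.93, 2.83 and 2.84 CPM in pBIC and 8.75, 7.45, 9.69 and 8.49 CPM in YC. The groups were ordered pBIC10, pBIC, YC from low to high with no overlap, and these were the largest falls among the members in both pBIC10 comparisons. Aldoc gave log2 fold changes of -3.34 ± 0.38 for pBIC10 against pBIC (adjusted p = 3.82e-05), -1.76 ± 0.30 for pBIC against YC (adjusted p = 0.000333) and -5.1 ± 0.38 for pBIC10 against YC (adjusted p = 7.87e-07). The pBIC10 level rests on 13 reads in the 3 libraries together. Tpi1, triose phosphate isomerase, was at 214, 214 and 303 CPM in pBIC10, 229, 511 and 347 CPM in pBIC and 176, 162, 227 and 190.5 CPM in YC. It was higher in pBIC than in YC without overlap (log2 fold change 0.94 ± 0.24, adjusted p = 0.00501). The difference between the lymphomas (-0.57 ± 0.26, adjusted p = 0.109) passed without pBIC replicate 1, or with sex as a covariate (log2 fold change -0.81 to -0.74, adjusted p 0.0162 to 0.0471).

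**Figure D2:**
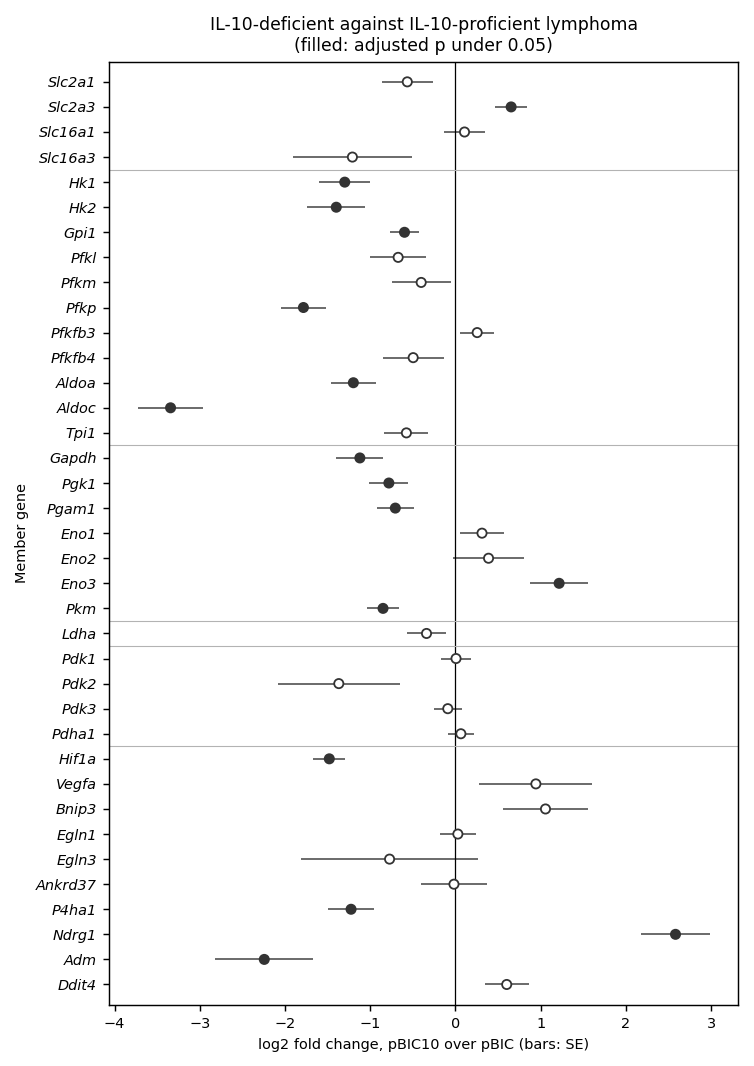
Fold change of the 37 tested members between the lymphomas, as log2 of pBIC10 over pBIC on the x axis with bars of 1 SE; filled points have an adjusted p under 0.05. Of the 16 filled points, 13 lie left of 0, with Aldoc farthest to the left, and 3 lie to the right, with Ndrg1 farthest.

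In the steps from triose phosphate to pyruvate, 6 of 7 members were higher in each lymphoma than in YC, and 4 of the 7 were lower in pBIC10 than in pBIC. Of all genes tested, 26.4% were higher in pBIC than in YC and 24.8% in pBIC10 than in YC, and 15.1% were lower in pBIC10 than in pBIC. Gapdh, the dehydrogenase that yields NADH, was at 82.9, 170.3 and 205 CPM in pBIC10, 271, 404 and 321 CPM in pBIC and 165, 147, 196 and 164 CPM in YC. All pBIC libraries lay above all others, and pBIC10 overlapped YC. Gapdh gave log2 fold changes of -1.12 ± 0.28 for pBIC10 against pBIC (adjusted p = 0.00818) and 0.98 ± 0.25 for pBIC against YC (adjusted p = 0.00558). Pgk1, which makes the first ATP of the pathway, was at 157, 129 and 131 CPM in pBIC10, 166, 333 and 216 CPM in pBIC and 78.1, 74.4, 97.4 and 87.8 CPM in YC. Both lymphomas lay above YC, and pBIC lay above pBIC10. Pgk1 gave log2 fold changes of -0.78 ± 0.23 for pBIC10 against pBIC (adjusted p = 0.02), 1.5 ± 0.21 for pBIC against YC (adjusted p = 8.91e-05) and 0.72 ± 0.21 for pBIC10 against YC (adjusted p = 0.0122). The call between the lymphomas was lost without pBIC10 replicate 2 or 3 or pBIC replicate 2, or with a fit to the compared groups alone or among females alone (log2 fold change -0.78 to -0.49, adjusted p 0.0515 to 0.0774), and that of pBIC10 against YC without pBIC10 replicate 1 (log2 fold change 0.63, adjusted p = 0.0513). Pgam1, phosphoglycerate mutase, was at 139.8, 157 and 172 CPM in pBIC10, 182, 329 and 252 CPM in pBIC and 81.9, 75.2, 108 and 95 CPM in YC. The order of the groups was the same, with no overlap. Pgam1 gave log2 fold changes of -0.70 ± 0.22 for pBIC10 against pBIC (adjusted p = 0.0247), 1.5 ± 0.20 for pBIC against YC (adjusted p = 5.7e-05) and 0.80 ± 0.20 for pBIC10 against YC (adjusted p = 0.00481). The call between the lymphomas was lost without pBIC10 replicate 1 or 2 or pBIC replicate 2, or with a fit to the compared groups alone (log2 fold change -0.70 to -0.51, adjusted p 0.0537 to 0.0965).

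All 3 enolases were higher in pBIC10 than in YC. Eno1, the widely expressed enolase, was at 559, 474 and 508 CPM in pBIC10, 239.8, 598 and 403 CPM in pBIC and 134, 114, 135 and 118 CPM in YC. Both lymphomas lay above YC without overlap. Eno1 gave log2 fold changes of 1.72 ± 0.24 for pBIC against YC (adjusted p = 7.14e-05) and 2.03 ± 0.24 for pBIC10 against YC (adjusted p = 2.09e-05). The lymphomas overlapped each other through pBIC replicate 2 (0.31 ± 0.25, adjusted p = 0.378), and pBIC10 was called higher without pBIC replicate 2 (log2 fold change 0.65, adjusted p = 0.0424). Eno2, the neuronal enolase, was at 14.6, 17.5 and 7.95 CPM in pBIC10, 17.6, 6.9 and 6.0 CPM in pBIC and 0.89, 0.983, 0.778 and 1.14 CPM in YC. The lymphoma libraries were all above YC, the largest rise over YC of any member in pBIC10. Eno2 gave log2 fold changes of 3.41 ± 0.43 for pBIC against YC (adjusted p = 3.99e-05) and 3.8 ± 0.44 for pBIC10 against YC (adjusted p = 1.8e-05). The pBIC value was 2.75 (adjusted p = 9.98e-05) without pBIC replicate 1. Between the lymphomas the call appeared without pBIC replicate 1 (log2 fold change 1.06, adjusted p = 0.0452). Eno3, the muscle enolase, was at 149.7, 169 and 76.2 CPM in pBIC10, 43.5, 38.2 and 88.3 CPM in pBIC and 50.1, 49.1, 62.5 and 63.7 CPM in YC. It was higher in pBIC10 than in YC without overlap (log2 fold change 1.22 ± 0.31, adjusted p = 0.00561) and higher than in pBIC with overlap (1.22 ± 0.34, adjusted p = 0.0164), and the second call was lost without pBIC10 replicate 1 or 2 or pBIC replicate 1 or 2, or with a fit to the compared groups alone (log2 fold change 0.97 to 1.21, adjusted p 0.054 to 0.0751). The pBIC and YC libraries overlapped (adjusted p = 0.987).

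Pkm, pyruvate kinase of proliferating cells and muscle, was at 769, 838 and 942 CPM in pBIC10, 1131, 1792 and 1668 CPM in pBIC and 574, 556, 699 and 633 CPM in YC. In every group Pkm had the most reads assigned to a member itself. That ranking leaves out reads on copies of other members, such as those of Gapdh and Eno1 described below, and is not a ranking of transcript abundance. The groups did not overlap, with pBIC highest and YC lowest. Pkm gave log2 fold changes of -0.85 ± 0.19 for pBIC10 against pBIC (adjusted p = 0.00415), 1.31 ± 0.17 for pBIC against YC (adjusted p = 5.14e-05) and 0.47 ± 0.17 for pBIC10 against YC (adjusted p = 0.0375). The last of these calls was lost without pBIC10 replicate 2 or 3 or YC replicate 1, 2 or 4, or among females alone (log2 fold change 0.40 to 0.48, adjusted p 0.0708 to 0.113). Counts per gene do not separate the Pkm1 and Pkm2 splice forms.

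Several of these genes share sequence with copies elsewhere in the mouse genome, and reads had been counted on the copies. A copy was any distant gene with at least 100 shared windows of 50 bases, summed over its transcripts. Among the counted Gapdh copies this number ran from 1131 for Gm7336 to 100 for Gm8864, beside 4598 windows of Gapdh itself. Some copies thus match only a part of the member. Of the reads on Gapdh and its 80 counted copies together, Gapdh held 6.28% in pBIC10, 7.17% in pBIC and 7.32% in YC. Pgk1 held 38.2%, 39.4% and 39.2% in the same order of groups, most of the rest lying on Pgk1-rs7, and Pgam1 held 52.3%, 53.5% and 51.8%. Eno1 held 25.7%, 24% and 24.9%, and its copy Eno1b was at 880 CPM in pBIC10, 754 CPM in pBIC and 212 CPM in YC. Bnip3, described below, held 61.5%, 73.9% and 71.4% in the same order of groups. The levels given for these genes hold only the reads assigned to the member itself. With the copies summed into the member, no call among the members changed: Gapdh was -0.93 in pBIC10 against pBIC (adjusted p = 0.00563) and Pgk1 -0.74 (adjusted p = 0.021) on the log2 scale. In the same comparison Bnip3 was 1.32 (adjusted p = 0.0515) with its copies and 1.06 (adjusted p = 0.127) without them. This alternative was chosen after seeing the data.

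Of the lactate dehydrogenases, which interconvert pyruvate and lactate, Ldha was at 646, 602 and 811 CPM in pBIC10, 573, 1121 and 909 CPM in pBIC and 308, 319, 414 and 368 CPM in YC. Both lymphomas lay above YC without overlap, and the lymphomas overlapped each other (-0.34 ± 0.23, adjusted p = 0.285). Ldha gave log2 fold changes of 1.3 ± 0.21 for pBIC against YC (adjusted p = 0.000248) and 0.96 ± 0.21 for pBIC10 against YC (adjusted p = 0.00204). The difference between the lymphomas passed without pBIC replicate 1 (log2 fold change -0.55, adjusted p = 0.0407). Ldhb, the form of heart and other oxidative tissues, was not tested. It had 0 reads in pBIC10, 18 in pBIC and 37 in YC. With 3 reads over the group set as the pBIC10 level, that level was 5.84-fold lower than in pBIC and 12.3-fold lower than in YC. These ratios leave out counting error and spread in pBIC and YC and are not lower bounds. Single YC libraries held 2 to 16 reads.

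All 4 tested genes of pyruvate dehydrogenase and its kinases differed from YC in both lymphomas, and none passed between the lymphomas. Of all genes tested, 54.1% were called in pBIC against YC, 51.7% in pBIC10 against YC and 30.7% between the lymphomas. Pdk1, the kinase induced by HIF-1, was at 159, 143 and 191 CPM in pBIC10, 144, 147 and 199 CPM in pBIC and 28.2, 31.9, 31.4 and 31.3 CPM in YC. Every lymphoma library was above every YC library. Pdk1 gave log2 fold changes of 2.41 ± 0.17 for pBIC against YC (adjusted p = 5.49e-07) and 2.42 ± 0.17 for pBIC10 against YC (adjusted p = 4.54e-07). The lymphomas overlapped (adjusted p = 0.983), with an SE of the log2 fold change of 0.17. Pdha1, the catalytic subunit that the kinases phosphorylate, was at 161, 139 and 159 CPM in pBIC10, 133, 163 and 143 CPM in pBIC and 64.6, 64.9, 72.3 and 70.2 CPM in YC. It too was above YC in both lymphomas. Pdha1 gave log2 fold changes of 1.11 ± 0.14 for pBIC against YC (adjusted p = 3.78e-05) and 1.17 ± 0.14 for pBIC10 against YC (adjusted p = 2.4e-05). Of the 50-base windows in Pdha1 transcripts, 12.9% also occur in other genes, chiefly Map3k15, which overlaps Pdha1 or lies nearby. Any effect on the Pdha1 counts was not tested. Pdk3 was at 91.7, 93.2 and 80.8 CPM in pBIC10, 84.1, 110 and 88.5 CPM in pBIC and 59.1, 51.6, 62.1 and 67 CPM in YC, again higher in both. Pdk3 gave log2 fold changes of 0.65 ± 0.15 for pBIC against YC (adjusted p = 0.0033) and 0.56 ± 0.15 for pBIC10 against YC (adjusted p = 0.00827). Pdk2 was at 0.177, 0.351 and 0.513 CPM in pBIC10, 1.07, 0.17 and 1.5 CPM in pBIC and 3.26, 5.0, 1.63 and 2.5 CPM in YC and was lower in both. Pdk2 gave log2 fold changes of -1.74 ± 0.62 for pBIC against YC (adjusted p = 0.0294) and -3.11 ± 0.69 for pBIC10 against YC (adjusted p = 0.00208). The pBIC call of Pdk2 was lost without pBIC replicate 1 or 2 or YC replicate 1 or 2 (log2 fold change -1.87 to -1.2, adjusted p 0.0521 to 0.0868), and pBIC10 was called lower than pBIC without pBIC replicate 2 (log2 fold change -1.88, adjusted p = 0.0391). Pdk4, which is induced by fasting in other tissues, had 3 reads in pBIC10, 1 in pBIC and 6 in YC and was not tested. Per kb of exon, Pdk1 made up 37.8% ± 5.24 in pBIC10, 36.2% ± 5.83 in pBIC and 14% ± 1.33 in YC of the 4 kinases, and Pdk3 made up most of the rest.

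**Figure D3:**
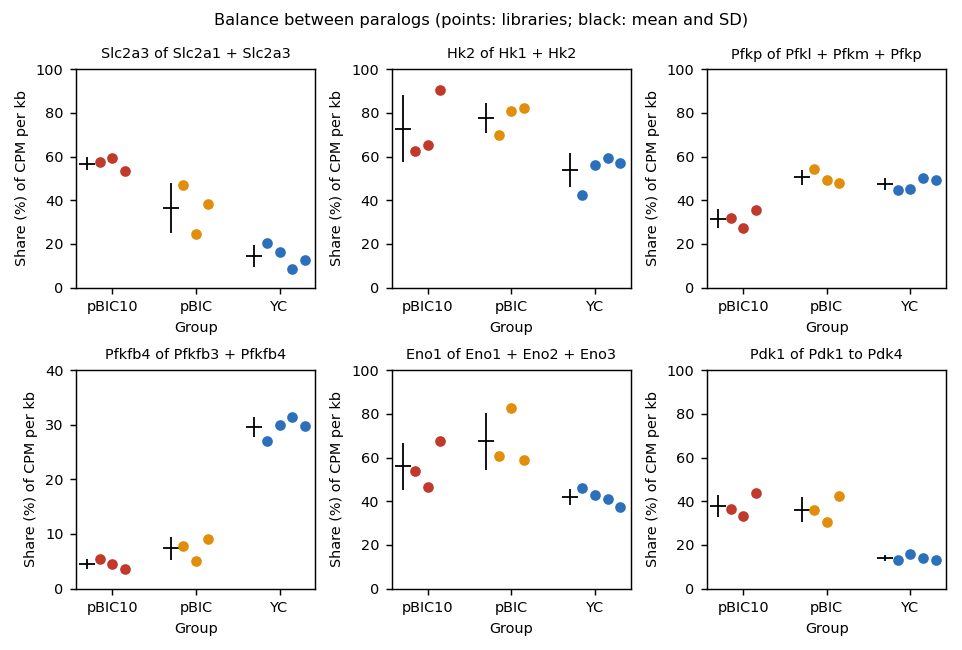
Share of a family's summed level held by 1 paralog, as a percentage of CPM per kb of exon; points are libraries, and black marks are the mean and SD of pBIC10, pBIC and YC. Slc2a3 is highest and Pfkp lowest in pBIC10, Pfkfb4 is highest in YC, and Pdk1 is lowest in YC. The panel for Pfkfb4 ends at 40%. Exon length is the union over all transcripts of a gene. The Eno1 panel leaves out reads counted on copies of Eno1. Eno1 held 25.7% of the reads on itself and its copies in pBIC10, 24% in pBIC and 24.9% in YC, so its share of the enolases is understated.

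Hif1a, the oxygen-regulated subunit of HIF-1, was at 63, 60.9 and 55.7 CPM in pBIC10, 174, 194 and 133 CPM in pBIC and 142, 103, 107 and 109 CPM in YC. All pBIC10 libraries lay below all libraries of both other groups. Hif1a gave log2 fold changes of -1.48 ± 0.19 for pBIC10 against pBIC (adjusted p = 8.37e-05) and -0.95 ± 0.18 for pBIC10 against YC (adjusted p = 0.000606). The pBIC libraries were higher than YC with overlap at YC replicate 1 (0.53 ± 0.17, adjusted p = 0.0185), a call lost without YC replicate 2, 3 or 4, or among females alone (log2 fold change 0.45 to 0.51, adjusted p 0.0514 to 0.0665). HIF-1α is regulated mainly through protein stability, which was not measured, and an antisense gene, Gm15283, lies at the locus. Egln1, which encodes the main prolyl hydroxylase PHD2, was at 57.6, 57.8 and 48.4 CPM in pBIC10, 38.6, 54 and 67.9 CPM in pBIC and 27.5, 25.4, 21.2 and 24.1 CPM in YC. Both lymphomas lay above YC without overlap and overlapped each other. Egln1 gave log2 fold changes of 1.12 ± 0.19 for pBIC against YC (adjusted p = 0.000389) and 1.15 ± 0.19 for pBIC10 against YC (adjusted p = 0.000313). Egln3 (PHD3) was near or below the floor in every lymphoma library, with 5 reads in pBIC10 and 9 in pBIC, against 85 reads and 0.92 to 2.5 CPM in YC, and was called lower in both. Egln3 gave log2 fold changes of -3.21 ± 0.79 for pBIC against YC (adjusted p = 0.00422) and -3.98 ± 0.86 for pBIC10 against YC (adjusted p = 0.00181). The pBIC value was -4.12 (adjusted p = 0.00483) without pBIC replicate 3.

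The genes known as HIF targets did not all move in the same direction. Adm, which encodes the vasodilator peptide adrenomedullin, was at 6.19, 4.28 and 8.61 CPM in pBIC10, 25.3, 8.48 and 56.7 CPM in pBIC and 1.41, 2.7, 2.55 and 1.21 CPM in YC. Both lymphomas lay above YC without overlap, and pBIC10 was lower than pBIC with overlap (-2.24 ± 0.57, adjusted p = 0.0118). Adm gave log2 fold changes of 3.94 ± 0.57 for pBIC against YC (adjusted p = 0.000155) and 1.69 ± 0.55 for pBIC10 against YC (adjusted p = 0.0227). Adm was highest in pBIC replicate 3. The fold change of pBIC10 against pBIC was -1.41 (adjusted p = 0.0428) without pBIC replicate 3, and that of pBIC against YC was 3.11 (adjusted p = 0.00021) without pBIC replicate 3. The call between the lymphomas was lost without pBIC10 replicate 2, or with no filter on low counts (log2 fold change -2.25 to -2.01, adjusted p 0.0555 to 0.0585), and that of pBIC10 against YC without pBIC10 replicate 3 or YC replicate 1 or 4, or in limma-voom, with no filter on low counts or among females alone (log2 fold change 1.43 to 1.74, adjusted p 0.0524 to 0.105). P4ha1, a prolyl hydroxylase of collagen, was at 12.2, 11.5 and 12.2 CPM in pBIC10, 25.1, 39.6 and 19.3 CPM in pBIC and 13.5, 15.7, 11 and 11.6 CPM in YC. All pBIC libraries lay above all others, and pBIC10 overlapped YC. P4ha1 gave log2 fold changes of -1.22 ± 0.27 for pBIC10 against pBIC (adjusted p = 0.00384) and 1.11 ± 0.25 for pBIC against YC (adjusted p = 0.00202). Ndrg1, a stress-responsive growth suppressor, was at 2.48, 1.76 and 2.41 CPM in pBIC10, 0.536, 0.339 and 0.214 CPM in pBIC and 12.7, 8.76, 9.41 and 12.1 CPM in YC. The groups did not overlap, with YC highest, pBIC10 next and pBIC lowest, where 20 reads were counted in 3 libraries. Ndrg1 gave log2 fold changes of 2.58 ± 0.40 for pBIC10 against pBIC (adjusted p = 0.0004), -4.85 ± 0.41 for pBIC against YC (adjusted p = 1.89e-06) and -2.27 ± 0.34 for pBIC10 against YC (adjusted p = 0.000123).

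Ddit4 (REDD1), an inhibitor of mTORC1 signalling that is also induced by other stresses, was at 59.6, 52.5 and 50.2 CPM in pBIC10, 37.8, 30.1 and 39 CPM in pBIC and 23, 21.7, 12.4 and 11.5 CPM in YC. The groups did not overlap, with pBIC10 highest and YC lowest, but the difference between the lymphomas did not pass (0.60 ± 0.26, adjusted p = 0.0967). Ddit4 gave log2 fold changes of 1.06 ± 0.24 for pBIC against YC (adjusted p = 0.00281) and 1.66 ± 0.25 for pBIC10 against YC (adjusted p = 0.00012). Bnip3, a mitophagy receptor, was at 1.3, 1.58 and 2.97 CPM in pBIC10, 0.643, 1.64 and 0.536 CPM in pBIC and 3.63, 3.11, 2.41 and 3.28 CPM in YC. It was lower in pBIC than in YC (log2 fold change -1.72 ± 0.48, adjusted p = 0.00871), and the values in pBIC10 overlapped both groups. This fold change was -2.32 (adjusted p = 0.00264) without pBIC replicate 2. Between the lymphomas, Bnip3 (1.06 ± 0.50, adjusted p = 0.127) was called higher in pBIC10 without pBIC replicate 2 (log2 fold change 1.69, adjusted p = 0.0294). Vegfa, the angiogenic factor, ranged over 5.51 to 9.28 CPM in pBIC10, 1.82 to 7.07 CPM in pBIC and 0.52 to 5.85 CPM in YC. It passed in no comparison; pBIC10 against YC (1.46 ± 0.62, adjusted p = 0.0663) passed without pBIC replicate 2 or YC replicate 4, or in DESeq2 or in limma-voom (log2 fold change 1.43 to 2.1, adjusted p 0.0152 to 0.0481). Ankrd37 ranged over 5.07 to 15.7 CPM in pBIC10, 6.54 to 12 CPM in pBIC and 7.37 to 9.13 CPM in YC and passed no test.

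**Figure D4:**
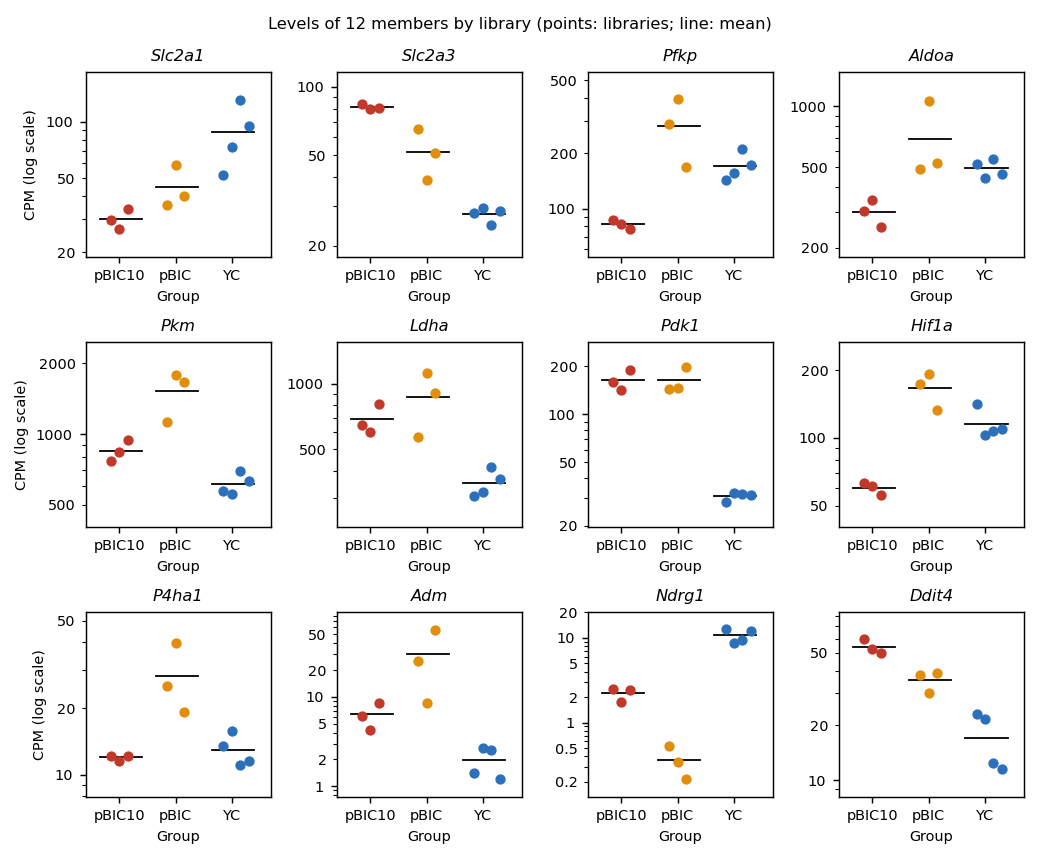
CPM of 12 members in each library on log scales whose range differs between panels; points are the pBIC10, pBIC and YC libraries and lines are group means. Pdk1 and Ldha are above YC in both lymphomas, Hif1a, Pfkp and Aldoa are lowest in pBIC10, P4ha1 and Pkm are highest in pBIC, and Ndrg1 is lowest in pBIC.

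**Figure D5:**
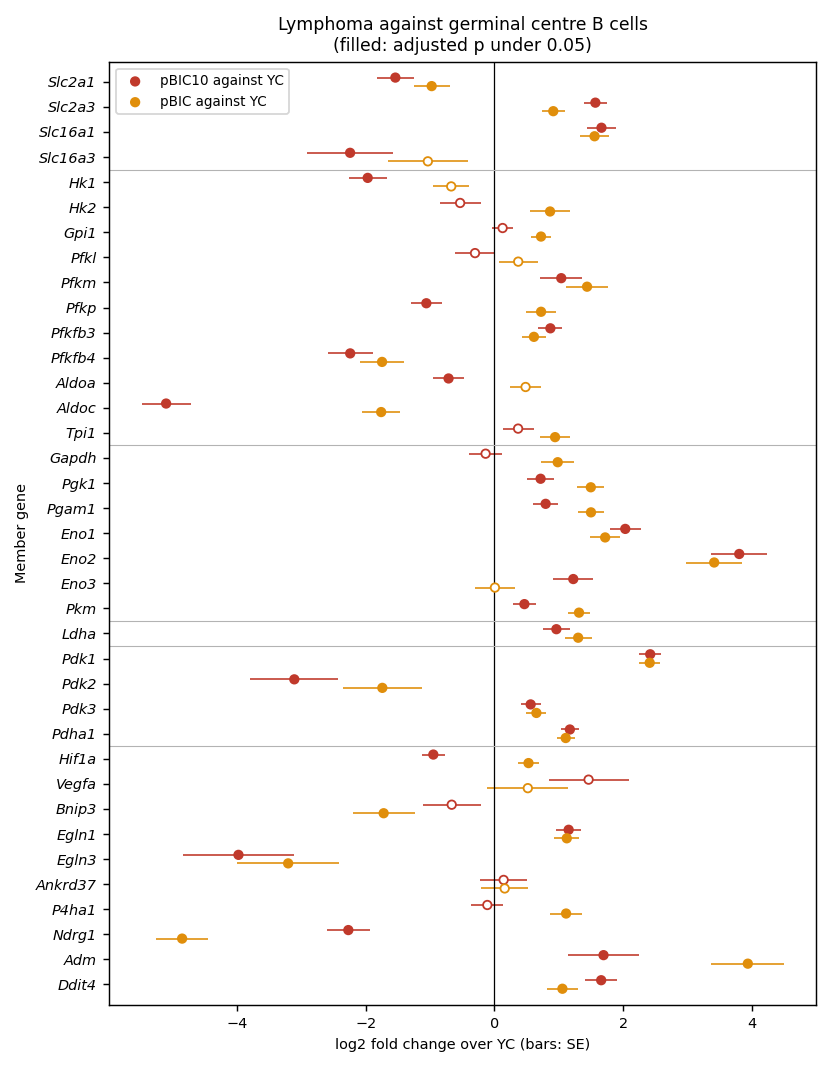
Fold change of the 37 tested members over YC, as log2 with bars of 1 SE, for pBIC10 (red, upper point of each pair) and pBIC (orange, lower point), which share the YC libraries; filled points have an adjusted p under 0.05. Pfkp and Hif1a are filled on opposite sides of 0, and Ndrg1 lies further to the left in pBIC than in pBIC10.

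The spread within groups was not even. Among the 37 tested members, pBIC replicate 2 was the highest pBIC library in 22, pBIC10 replicate 3 the highest pBIC10 library in 16 and YC replicate 3 the highest YC library in 17. Replicate 3 of pBIC10 and replicate 3 of YC were the male libraries. The fit among females alone leaves out both, so it is not independent of the fits without either of them. The ratio of highest to lowest library reached 8.84 for Pdk2, 7.18 for Slc16a3 and 6.69 for Adm in pBIC, 5.71 for Slc16a3 in pBIC10 and 11.3 for Vegfa in YC, and was 1.06 for P4ha1 and 1.05 for Slc2a3 in pBIC10.

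Genes of neighbouring pathways were compared through lists that hold no member. Over all genes tested, 15.6% rose and 15.1% fell in pBIC10 against pBIC. The shares were 26.4% and 27.7% in pBIC against YC, and 24.8% and 26.9% in pBIC10 against YC. The counts of every list below are to be read beside these shares. Several of them lie near these shares, and no list was tested as a set. Of 19 tested other genes of glycolysis and hexose use, 2 rose and 5 fell in pBIC10 against pBIC, 5 rose and 4 fell in pBIC against YC, and 4 rose and 7 fell in pBIC10 against YC. Fold changes named in what follows are those of pBIC10 against pBIC. Pgm1, a phosphoglucomutase that links glucose-6-phosphate to glycogen, fell and averaged 29.6 CPM in pBIC10, 97.1 CPM in pBIC and 27.9 CPM in YC (log2 fold change -1.72, adjusted p = 3.12e-05). Bsg, the chaperone of the lactate transporters, fell and averaged 137 CPM in pBIC10, 261 CPM in pBIC and 121 CPM in YC (log2 fold change -0.93, adjusted p = 0.00725). Hk3, a hexokinase of blood cells, averaged 0.352 CPM in pBIC10, 2.82 CPM in pBIC and 3.38 CPM in YC (log2 fold change -2.97, adjusted p = 0.00324). Pfkfb2, a further bifunctional enzyme, rose and averaged 36 CPM in pBIC10, 14.1 CPM in pBIC and 10.8 CPM in YC (log2 fold change 1.35, adjusted p = 0.00549). The other gene that rose was Gpd1, a glycerol-3-phosphate dehydrogenase (log2 fold change 1.49, adjusted p = 0.0491), whose call was lost without pBIC10 replicate 1 or 2, pBIC replicate 1 or 2 or YC replicate 1, 2, 3 or 4, or with upper quartile scaling, with no filter on low counts, with a fit to the compared groups alone or among females alone (log2 fold change 1.16 to 1.71, adjusted p 0.0513 to 0.174). Leaving out 1 library gave 1 to 3 higher and 3 to 5 lower genes for pBIC10 against pBIC, with 3 lower without pBIC10 replicate 1 or 3 or YC replicate 2 or 4. For pBIC10 against YC it gave 4 to 7 lower genes, with 4 without replicate 3 of pBIC10 or of YC.

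Glycogen genes rose in pBIC10 against pBIC in 5 of 11 tested and fell in none, beside 15.6% and 15.1% of all genes. In pBIC against YC 1 rose and 6 fell, and in pBIC10 against YC 4 rose and 3 fell. Pygl, the liver type glycogen phosphorylase, averaged 19.3 ± 4.95 CPM in pBIC10, 0.804 ± 0.517 CPM in pBIC and 2.55 ± 0.836 CPM in YC (SD) and showed the largest rise (log2 fold change 4.57 ± 0.51, adjusted p = 3.18e-05 for pBIC10 against pBIC). Phka2, a subunit of the kinase that activates it, rose by less (log2 fold change 1.47, adjusted p = 0.000488). The 5 higher genes became 3 without pBIC10 replicate 1 or 3 or pBIC replicate 2, and 1 gene became lower without pBIC replicate 2 or 3. The 1 gene higher in pBIC than in YC became 2 without pBIC replicate 2.

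Of 10 genes for pyruvate entry and the pyruvate dehydrogenase complex, 1 rose and 2 fell in pBIC10 against pBIC, while 7 rose and none fell in each lymphoma against YC. Pdp1, the phosphatase that reactivates the complex, rose (log2 fold change 0.98, adjusted p = 0.0172), a call lost without pBIC10 replicate 3, or among females alone (log2 fold change 0.86 to 0.88, adjusted p 0.0558 to 0.075). Pcx, pyruvate carboxylase, fell (log2 fold change -1.27, adjusted p = 0.00531). Dld, the dihydrolipoamide dehydrogenase of the complex, fell (log2 fold change -0.65, adjusted p = 0.0167), a call lost without pBIC10 replicate 1 or 2 (log2 fold change -0.65 to -0.61, adjusted p 0.0511 to 0.0661). Of 16 genes of the tricarboxylic acid cycle, 1 rose and 3 fell in pBIC10 against pBIC. Dlst, a subunit of the oxoglutarate dehydrogenase complex, rose (log2 fold change 0.71, adjusted p = 0.0023). Cs, citrate synthase, fell (log2 fold change -0.81, adjusted p = 0.00249), as did Suclg1, a subunit of succinyl-CoA ligase (log2 fold change -0.86, adjusted p = 0.00598), and Idh3a, a subunit of isocitrate dehydrogenase (log2 fold change -0.61, adjusted p = 0.0305). Idh3a did not pass without pBIC10 replicate 1, 2 or 3 or pBIC replicate 2 or 3, or with a fit to the compared groups alone or among females alone (log2 fold change -0.67 to -0.44, adjusted p 0.0517 to 0.113). The 7 pyruvate genes higher in pBIC than in YC became 4 without YC replicate 2 or 3, and the 1 higher in pBIC10 than in pBIC became 2 without YC replicate 1 or any 1 pBIC library. In pBIC against YC 9 of the 16 rose and none fell, and in pBIC10 against YC 10 rose and 1 fell; leaving out 1 library gave 0 to 1 lower in the first of these and 0 to 2 lower in the second. Of 10 pentose phosphate genes, only Rpia, a ribose-5-phosphate isomerase, changed in pBIC10 against pBIC (log2 fold change -0.95, adjusted p = 0.00947), 6 rose in pBIC against YC with none lower, and 7 rose and 2 fell in pBIC10 against YC. The 2 that fell became 0 without pBIC10 replicate 2 or 3 or YC replicate 1 or 3, and in pBIC10 against pBIC 2 pentose phosphate genes were higher without pBIC replicate 2.

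Of 29 other tested HIF targets and oxygen-sensing genes, 3 rose and 7 fell in pBIC10 against pBIC, 7 rose and 10 fell in pBIC against YC, and 8 rose and 13 fell in pBIC10 against YC. Plod2, a collagen lysyl hydroxylase, was at 0, 0.0586 and 0.154 CPM in pBIC10, 14.7, 15.4 and 11.7 CPM in pBIC and 0.593, 0.491, 0.778 and 1.14 CPM in YC (log2 fold change -7.41 ± 0.60, adjusted p = 3.04e-06 for pBIC10 against pBIC). Ak4, a mitochondrial adenylate kinase, was at 0.177, 0.0586 and 0.308 CPM in pBIC10, 8.04, 12.2 and 6.21 CPM in pBIC and 0.89, 0.246, 0.707 and 0.57 CPM in YC (log2 fold change -5.52 ± 0.59, adjusted p = 2.47e-05). For both genes the pBIC libraries stood above all others, and the pBIC10 values rest on 4 reads of Plod2 and 10 of Ak4. The fold change of Plod2 was -8.54 (adjusted p = 5.69e-06) without pBIC10 replicate 3 and that of Ak4 -6.12 (adjusted p = 7.15e-05) without pBIC10 replicate 3. Cited2, which competes with HIF-1α for a coactivator, fell and averaged 13.6 CPM in pBIC10, 72.8 CPM in pBIC and 123 CPM in YC (log2 fold change -2.42, adjusted p = 9.71e-06). Cxcr4, a chemokine receptor, rose and averaged 391 CPM in pBIC10, 73.4 CPM in pBIC and 303 CPM in YC (log2 fold change 2.41, adjusted p = 0.000672). Mxi1, an antagonist of Myc, averaged 87.5 CPM in pBIC10, 47.3 CPM in pBIC and 8.74 CPM in YC (log2 fold change 0.89, adjusted p = 0.0102). Hif3a, a HIF-α paralog, averaged 8.54 CPM in pBIC10, 1.27 CPM in pBIC and 2.05 CPM in YC (log2 fold change 2.74, adjusted p = 0.0102). The Hif3a value was 3.4 (adjusted p = 0.00836) without pBIC replicate 1. When libraries were left out 1 at a time, the 10 that fell in pBIC against YC became 6 without pBIC replicate 1.

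Of 18 tested regulators of glycolytic genes, 8 rose and 2 fell in pBIC10 against pBIC, 3 rose and 6 fell in pBIC against YC, and 7 rose and 4 fell in pBIC10 against YC. Akt1, a kinase that promotes glucose uptake, was at 1635, 1756 and 1286 CPM in pBIC10, 184, 232 and 317 CPM in pBIC and 295, 227, 345 and 278 CPM in YC. All pBIC10 libraries lay above all others (log2 fold change 2.67 ± 0.23, adjusted p = 4.98e-06). Txnip, an inhibitor of glucose uptake that is itself induced by glucose metabolites, was at 177, 170.5 and 224 CPM in pBIC10, 81.5, 84.5 and 90.9 CPM in pBIC and 184, 190.2, 215 and 241 CPM in YC, lowest in pBIC (log2 fold change 1.15 ± 0.17, adjusted p = 0.000254). Sesn2, a stress-induced inhibitor of mTORC1, fell and averaged 3.35 CPM in pBIC10, 10.7 CPM in pBIC and 16.9 CPM in YC (log2 fold change -1.67, adjusted p = 0.00124). Arrdc4, a relative of Txnip, fell (log2 fold change -7.28, adjusted p = 0.00365), and its pBIC level rested largely on replicate 3, at 42.8 CPM beside 2.41 and 1.58 CPM. Its fold change was -4.32 (adjusted p = 0.00371) without pBIC replicate 3. Myc was at 1615, 1320 and 3204 CPM in pBIC10, 683, 688 and 855 CPM in pBIC and 224, 456, 259 and 299 CPM in YC, the groups not overlapping (log2 fold change 1.46 ± 0.33, adjusted p = 0.00552 for pBIC10 against pBIC). Of 23 cell cycle genes, 4 rose and 7 fell in pBIC10 against pBIC, 1 rose and 4 fell in pBIC against YC, and 2 rose and 11 fell in pBIC10 against YC; the part of cell cycle differences in the results above was not tested.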

How the data were processed

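RNA from sorted cells was poly(A)-enriched and sequenced as single-end reads of 50 bases, per the labels' protocols. The authors deposited a table of raw read counts per gene; FastQC, featureCounts and the build GRCm39 are named in the submitters' processing notes, and the sources used here do not give the aligner, annotation, strand setting or versions. No 2 libraries were identical, and no column was left unused.

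From the counts, edgeR 4.0.16 (R 4.3.3) fitted all 10 libraries with 1 coefficient per group after TMM scaling and filterByExpr, with robust quasi-likelihood tests, two-sided, and Benjamini-Hochberg adjustment over 17718 genes at 0.05. The biological coefficient of variation was 0.289, with 7 residual degrees of freedom. SEs of fold changes were derived from the F statistic. The steps were tested on simulated counts in which far fewer genes changed than were called in the data. That check does not cover changes as widespread as these, and its outcome is not given here. Alternatives were other scalings and filters, DESeq2 1.42.0, limma-voom 3.58.1, sex, females alone, only the groups compared, stricter thresholds, leaving out antigen receptor genes, and each library left out. Exon lengths and shared 50-base windows came from GENCODE M21 (GRCm38); promoters came from RefSeq (GRCm38.p6). Exon lengths and copies carry over from that build by gene symbol. Counts have no molecular identifiers, so the 3-count floor covers counting error only.

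Values in every library are given for members called in pBIC10 against pBIC or in pBIC against YC, or called with at least a 2-fold change in pBIC10 against YC; from each related list, up to 3 called genes per direction with the smallest adjusted p in pBIC10 against pBIC are named, and Myc was added after its values were seen. Of the genes this rule names, 2 are not reported here. The members and lists were chosen with earlier results of these data known. Figures were drawn with matplotlib 3.10.9.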

Additional observations from a re-analysis of the deposited data

Results flagged for a closer look

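Among the 4 YC libraries, replicate 1 stood apart from the other 3 for a pair of members. For Pdk1 it was lowest, at 28.2 CPM against 31.3 to 31.9 CPM in the others, a gap that is small beside the lymphoma levels of 143 CPM and more. For Hif1a it was highest, at 142 CPM against 103 to 109 CPM in the others, and it is the YC library that overlaps pBIC. In each case the gap, as a share of the group's range, exceeded Dixon's 95% critical value for 4 values. The YC values of 39 members were examined in this way, and chance alone flags about 1 set in 20.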

How the results depend on the processing

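Each comparison was recomputed under 22 alternative fits and 2 stricter thresholds. Every called member kept its direction in every fit, and 10 of 16 calls in pBIC10 against pBIC, 25 of 30 in pBIC against YC and 22 of 28 in pBIC10 against YC held in all of them. Members higher in pBIC10 than in pBIC, 3 as reported, numbered 1 when only the compared groups were fitted, 1 at an adjusted p under 0.01, and 1 to 3 when single libraries were left out, the lowest without pBIC10 replicate 1. Requiring at least a 2-fold change left 14 of the 23 members higher in pBIC than in YC and 11 of the 17 higher in pBIC10 than in YC, by the construction of that threshold. Over the leave-one-out fits the other counts were 11 to 16 lower in pBIC10 than in pBIC, 20 to 25 higher and 6 to 8 lower in pBIC than in YC, and 15 to 18 higher and 10 to 12 lower in pBIC10 than in YC. Uncalled member values changed sign in at least 1 alternative for 6 members between the lymphomas, 4 between pBIC and YC, and 2 between pBIC10 and YC. With a reported log2 fold change of at least 0.3 in size these were Pfkl and Vegfa in pBIC against YC (-0.15 to 0.68 and -0.10 to 1.15 over the leave-one-out fits, both lowest without pBIC replicate 2) and Egln3 in pBIC10 against pBIC (-1.35 to 0.15); Pfkfb2 of the related genes spanned -0.15 to 0.69 in pBIC against YC. The cause was not tested. No paired analysis was possible because the labels give the groups no shared replicate numbers. Scaling moved the median of all genes by at most 0.05 (log2). Among tested members, Egln3, Pdk2, Slc16a3, Vegfa and Adm had the largest SEs.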
